A study of Homo sapiens with 14 samples.

Results

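NF-kB is a family of transcription factors that myeloid cells use to switch on inflammatory genes. Its 5 subunit genes are NFKB1 and NFKB2, which encode the precursors of p50 and p52, and RELA, RELB and REL, which encode the subunits that carry a transactivation domain. Inhibitors of the IkB type hold the dimers in the cytoplasm until IkB kinase marks them for degradation, after which the dimers enter the nucleus and activate, among others, the genes of their own inhibitors. NFKBIA encodes the inhibitor IkB-alpha, TNFAIP3 encodes A20, a ubiquitin-editing enzyme that shuts the pathway down, and BIRC3 encodes cIAP2, a ubiquitin ligase of TNF receptor complexes. IL1B, the inflammatory cytokine interleukin 1 beta, and IL1RN, the antagonist that blocks its receptor, are made by activated monocytes, macrophages and neutrophils.

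These 10 genes were taken by symbol from the rows of the log10 normalized expression table that had an NCBI gene ID. All 10 were found, each on 1 of the 37466 rows with such an ID, of 60707 rows in all, and all 10 were tested, since each reached 1 normalized FPKM in 2 or more of the 12 replicated libraries. FPKM divides the reads of a gene by its transcript length and by the size of the library, so levels can be set side by side between genes. The 14 libraries of polyA RNA came from HL-60 and PLB-985, myeloid leukemia lines of human origin that become neutrophil-like in DMSO. PLB-985, which is held to be a sub-line of HL-60, carried the transgene H2B-mCherry in every library and HL-60 carried none, so that line and transgene cannot be told apart here. In each line, undifferentiated cells in 9% FBS, cells after 6 days in 1.3% DMSO with 9% FBS, and cells after 6 days in 1.3% DMSO with FBS lowered to 0.5% and 2% Nutridoma-CS, a serum substitute, had 2 libraries each. The DMSO and Nutridoma protocol thus changed serum and supplement together. PLB-985 cells in this protocol also had 1 library on day 2 and 1 on day 4. The labels do not say that replicates came from separate cultures. By the study's methods the experiment was run on 2 independent days. The p-values measure the spread left between these libraries once the shift shared by a replicate number is removed, pooled over the 6 groups.

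Read counts were not analysed here, so the depth behind a single value is unknown and no counting interval is given. Total FPKM ran from 739094 to 1082040 per library. All 10 late neutrophil markers were at 1 normalized FPKM or more in every day-6 library, with sums from 11899.6 to 20724.3, against 233 to 539 in undifferentiated cells. Some libraries stood apart from their partners. In replicate 1 of undifferentiated HL-60 cells PRG2, an eosinophil granule gene, was at 2.73 normalized FPKM against 358 in replicate 2. In the HL-60 library of replicate 2 with DMSO and Nutridoma, 9 of the 10 genes were higher than in replicate 1, with a median difference of 1.52 log2. In undifferentiated PLB-985 cells and in HL-60 cells with DMSO 9 were higher too, with medians of 1.15 and 0.38. In each PLB-985 day-6 group 8 were higher, and in undifferentiated HL-60 cells 2. The share of all tested genes was not computed.

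The genes lie on 7 chromosomes of GRCh38 (GENCODE 44) and all are protein-coding. NFKBIA is at chr14:35401079-35404749 on the minus strand, TNFAIP3 at chr6:137867214-137883314 on the plus strand, and BIRC3 at chr11:102317484-102339403 on the plus strand. NFKB1 is at chr4:102501330-102617302, NFKB2 at chr10:102394110-102402524 and RELB at chr19:45001461-45038192, all on the plus strand. REL is at chr2:60881491-60931612 on the plus strand and RELA at chr11:65653599-65663090 on the minus strand. IL1B, at chr2:112829751-112836816 on the minus strand, and IL1RN, at chr2:113099315-113134016 on the plus strand, lie near each other on chromosome 2.

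The promoters of several of these genes are known to hold binding sites for NF-kB itself, and they were searched here. For 7 of the 10 genes both HL-60 libraries with DMSO and Nutridoma lay above the other 10 replicated libraries. The share of all tested genes with this separation was not computed, so the count only describes these values. RefSeq start sites on GRCh38.p14 were found for 9 of the 10 genes. Windows of 300 bases, from 250 before to 50 after the start, were searched on both strands for the letters GGG, any 2 bases and TTTCC, an NF-kB motif. The letters were found in 5 of the 10 genes, NFKB1, REL, NFKBIA, TNFAIP3 and BIRC3, and in 1.91% of 35116 such windows genome-wide. TNFAIP3 held 2 matches and the other 4 genes 1 each. The looser NF-kB consensus, which overlaps these letters, was found in the same 5 genes and in 5.91% of the windows. The windows of NFKB2, RELA, IL1B and IL1RN held neither. RELA's window begins at a start that no GENCODE 44 transcript of the gene shares. The RefSeq starts of NFKB1, REL, TNFAIP3, IL1B and IL1RN lie inside the annotated gene, as does the match shown for REL. A match is a description of letters and not a site shown to bind. In the stretches below, the match stands in capitals (the motif or its reverse complement), read 5′ to 3′ along the gene's own strand.
NFKBIA, bases 81 to 72 before the start, chr14:35404811-35404840, minus strand: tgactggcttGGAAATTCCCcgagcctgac
NFKB1, bases 49 to 40 before the start, chr4:102501300-102501329, plus strand: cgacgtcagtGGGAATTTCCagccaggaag
REL, bases 46 to 37 before the start, chr2:60881518-60881547, plus strand: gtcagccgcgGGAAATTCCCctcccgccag
TNFAIP3, bases 67 to 58 before the start, chr6:137867182-137867211, plus strand: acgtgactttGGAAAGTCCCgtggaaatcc
TNFAIP3, bases 55 to 46 before the start, chr6:137867194-137867223, plus strand: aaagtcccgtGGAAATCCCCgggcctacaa
BIRC3, bases 199 to 190 before the start, chr11:102317275-102317304, plus strand: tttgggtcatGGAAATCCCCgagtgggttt

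NFKBIA, the gene with the highest mean level in 5 of the 6 replicated groups, is also shown with the 250 bases before its start, chr14:35404750-35404999 on the minus strand, with the same match in capitals.
NFKBIA: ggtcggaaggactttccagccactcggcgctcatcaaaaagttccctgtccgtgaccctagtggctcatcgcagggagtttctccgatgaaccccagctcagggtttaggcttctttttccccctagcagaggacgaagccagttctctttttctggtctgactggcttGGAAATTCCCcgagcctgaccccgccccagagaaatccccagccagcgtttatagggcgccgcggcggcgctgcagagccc

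The first question was how these genes stood before differentiation. NFKBIA and RELA had the highest means of the 10 genes in both lines, and IL1B, IL1RN and BIRC3 had the lowest. RELA was at 43.5 and 35.4 normalized FPKM in replicates 1 and 2 of PLB-985 cells and at 42.1 and 38.8 in those of HL-60 cells, and the lines overlapped. NFKBIA was at 24.05 and 73.8 in PLB-985 and at 56.7 and 16.96 in HL-60 cells. The lines overlapped, and their replicates lay in opposite order. IL1B was at 0.63 and 0.81 in PLB-985 and at 0.84 and 1.18 in HL-60 cells, and IL1RN at 0.30 and 0.58 against 3.05 and 1.41. In both genes the lines did not overlap, although for IL1B they came as close as 0.81 and 0.84, at levels near the floor.

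Between the undifferentiated lines none of the 10 genes passed the test (limma, 0 of 10 at an adjusted p under 0.05, 1 of 10 at an unadjusted p under 0.05), where 14.1% of the 13778 tested genes did, 7.88% as higher and 6.25% as lower in PLB-985. Fold changes here are on the scale of log2(normalized FPKM + 1), which understates the change of genes at low levels. IL1RN, the gene with the unadjusted p under 0.05, differed by −1.12 log2 in PLB-985 against HL-60 cells (SE 0.43, limma adjusted p = 0.13). With an added constant of 0.1 in place of 1 its log2 difference was −2.06 (adjusted p = 0.028), without replicate 2 of the undifferentiated HL-60 cells it was −1.74 (adjusted p = 0.047), and without their replicate 1 it was −0.51 (adjusted p = 0.51).

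The spread between the undifferentiated replicates was wide for these genes and ran in opposite directions in the 2 lines. In PLB-985 cells 9 of the 10 genes were higher in replicate 2 than in replicate 1, with a median log2 difference of 1.15, and RELA alone was lower. In HL-60 cells 8 were lower in replicate 2, with a median of −0.27, and NFKB1 and IL1B were higher. Of the 10 genes 7 had both directions, against 20.1% of the tested genes. TNFAIP3 was at 1.81 and 20.4 in replicates 1 and 2 of PLB-985 cells and at 8.59 and 6.78 in HL-60 cells. NFKB2 was at 1.96 and 12.2 in PLB-985 and at 8.61 and 3.39 in HL-60 cells, and RELB at 1.33 and 12.2 and at 9.96 and 4.63. Replicate 1 of PLB-985 and replicate 2 of HL-60 cells were therefore the low libraries for NFKBIA, NFKB2 and RELB. NFKBIA and NFKB2 differed by more than 1 log2 in opposite directions in the 2 lines, which 0.196% of the tested genes did. The cytokine genes TNF and CXCL8 lay in the same order, which was seen only after their values were known. TNF was at 5.68 and 13.4 in PLB-985 and at 30.9 and 8.25 in HL-60 cells. CXCL8, a neutrophil-attracting chemokine, was at 12.9 and 47.3 in PLB-985 and at 61.5 and 19.8 in HL-60 cells. The sum of 8 eosinophil, basophil and mast cell markers ran opposite to CXCL8 in HL-60 cells. It was 13.8 in replicate 1 and 444 in replicate 2, and ran from 633 to 747 in PLB-985 cells. Its part in the result was not tested.

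**Figure D1:**
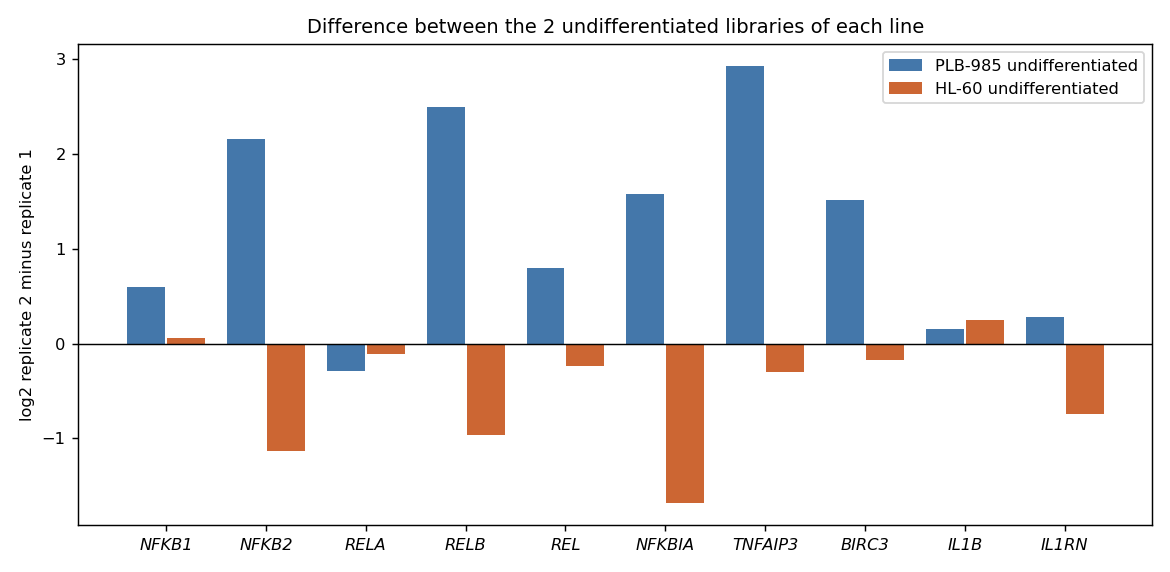
Difference between the 2 undifferentiated libraries of each line, as log2(normalized FPKM + 1) of replicate 2 minus replicate 1, for the 10 genes. The PLB-985 bars point up for 9 genes and reach 2.93 for TNFAIP3, and the HL-60 bars point down for 8 genes and reach −1.68 for NFKBIA.

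The second question was what 6 days in DMSO changed. In both lines the 2 interleukin 1 genes and REL rose, and most of the subunit and inhibitor genes did not pass the test. IL1B went from 0.63 and 0.81 normalized FPKM to 15.9 and 28.8 in PLB-985 cells and from 0.84 and 1.18 to 27.6 and 51.0 in HL-60 cells. No day-6 library overlapped with an undifferentiated one. It rose by 3.70 log2 in PLB-985 (SE 0.47, limma adjusted p = 0.00026) and by 4.27 log2 in HL-60 cells (SE 0.47, adjusted p = 0.00013). IL1RN, whose protein competes with interleukin 1 for the receptor, went to 26.4 and 32.6 in PLB-985 and to 27.9 and 33.5 in HL-60 cells. It rose by 4.401 log2 (SE 0.43, adjusted p = 7.3e-05) and by 3.33 log2 (SE 0.43, adjusted p = 0.00029), and the DMSO libraries of the lines overlapped. Without replicate 1 of undifferentiated HL-60 cells IL1RN changed by 3.95 in that line and without replicate 2 by 2.72, and both passed. In bulk RNA, more cells that express a gene and more RNA per cell cannot be told apart.

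REL, the subunit c-Rel of blood cells, was at 2.61 and 5.26 in undifferentiated and at 6.03 and 7.599 in DMSO-treated PLB-985 cells, and at 3.18 and 2.55 against 6.38 and 7.24 in HL-60 cells. Every DMSO library was above every undifferentiated library of its line. It rose by 0.71 log2 in PLB-985 (SE 0.24, adjusted p = 0.033) and by 1.02 log2 in HL-60 cells (SE 0.24, adjusted p = 0.0068). Without replicate 1 of undifferentiated PLB-985 cells the change of REL was 0.40 (adjusted p = 0.25), without either DMSO library of that line its adjusted p was 0.11 or 0.12, and without replicate 2 of undifferentiated HL-60 cells it was 0.71 (adjusted p = 0.054), against 1.33 (adjusted p = 0.0044) without their replicate 1. The call of REL for PLB-985 also depended on the model and the filter, with an adjusted p of 0.084 without the replicate number in the model and of 0.086 with no filter. NFKB2, the subunit of the non-canonical pathway, passed the test in HL-60 cells, with 17.7 and 33.3 in DMSO and a rise of 1.97 log2 (SE 0.66, adjusted p = 0.033). Without replicate 2 of the undifferentiated HL-60 cells it was 0.67 (adjusted p = 0.20), without their replicate 1 it was 3.26 (adjusted p = 0.00057), and without replicate 1 or 2 of the DMSO cells its adjusted p was 0.13 or 0.099. It was 0.12 without the replicate number in the model and 0.10 with no filter.

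In PLB-985 cells 3 of the 10 genes passed in the DMSO comparison, where 60.4% of the tested genes did, 24.6% as higher and 35.8% as lower. In HL-60 cells 4 of the 10 passed, where 60.7% of the tested genes did, 26% as higher and 34.7% as lower. The 10 genes were thus called no more often than genes at large. The median log2 fold change of the 10 genes was 0.30 for PLB-985 and 0.97 for HL-60 cells, against −0.15 and −0.11 over all tested genes. NFKBIA was at 54.5 and 50.1 in PLB-985 cells with DMSO, inside the range of the undifferentiated libraries, and at 62.0 and 91.0 in HL-60 cells, above both of them. Its fold change within replicates was 1.15 in replicate 1 and −0.55 in replicate 2 of PLB-985 cells, and 0.13 and 2.36 in HL-60 cells, so that the undifferentiated library decided its sign or size. In HL-60 cells its change was 1.24 (SE 0.63, adjusted p = 0.12), without replicate 1 of the undifferentiated cells 2.22 (adjusted p = 0.017) and without their replicate 2 0.26 (adjusted p = 0.73). TNFAIP3 stood likewise, at 6.15 and 7.90 in PLB-985 cells with DMSO, between the 2 undifferentiated libraries. BIRC3 was at 0.38 and 0.93 in PLB-985 and at 1.96 and 3.86 in HL-60 cells with DMSO. No member passed the test of the difference between the lines in the DMSO response (limma, 0 of 10, 1 at an unadjusted p under 0.05), which 1.31% of the tested genes passed, 0.435% as higher and 0.871% as lower in PLB-985. After DMSO, none of the 10 genes passed the test between the lines either (0 of 10, 1 at an unadjusted p under 0.05), where 10.4% of the tested genes did, 5.14% as higher and 5.23% as lower in PLB-985.

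RELA, the subunit of the classical p50 and p65 dimer, did not pass any of the 12 tests. It was at 55.7 and 33.7 in PLB-985 and 39.4 and 35.0 in HL-60 cells with DMSO, and at 53.2 and 48.5 and at 46.8 and 39.0 with DMSO and Nutridoma. Its 95% interval for DMSO against undifferentiated cells ran from −0.21 to 0.49 log2 in PLB-985 and from −0.47 to 0.23 in HL-60 cells. The intervals of NFKBIA in the same comparisons, −1.16 to 1.75 and −0.21 to 2.70, were wider. On FPKM without the authors' scaling RELA passed in PLB-985 cells with Nutridoma against undifferentiated cells, at 0.56 (adjusted p = 0.022, against 0.36 and 0.068 with it).

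The third question was what the low-serum protocol with Nutridoma changed, and the values are given for each line. In HL-60 cells NFKBIA was at 62.0 and 91.0 normalized FPKM with DMSO and at 659 and 723 with DMSO and Nutridoma, a rise of 3.18 log2 (SE 0.63, limma adjusted p = 0.017). In PLB-985 cells NFKBIA was at 54.5 and 50.1 with DMSO and at 73.6 and 43.4 with DMSO and Nutridoma, a log2 difference of 0.11 with a 95% interval from −1.34 to 1.57 (adjusted p = 0.98). The 2 HL-60 libraries with Nutridoma were above every other library of the series, and the PLB-985 libraries with and without Nutridoma overlapped. In HL-60 cells 6 of the 10 genes rose against DMSO, where 16.5% of the tested genes passed, 9.86% as higher and 6.61% as lower. The other 4 had values of 1.99 for RELB (adjusted p = 0.079), 1.77 for NFKB2 (adjusted p = 0.11), 0.29 for REL and 0.20 for RELA. The median over the 10 genes was 1.88, against 0.02 over all tested genes. In PLB-985 cells 0 of the 10 passed (limma, 0 also at an unadjusted p under 0.05), where 1.05% of the tested genes did, 0.893% as higher and 0.16% as lower, with a median of 0.08 against 0.01.

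**Figure D2:**
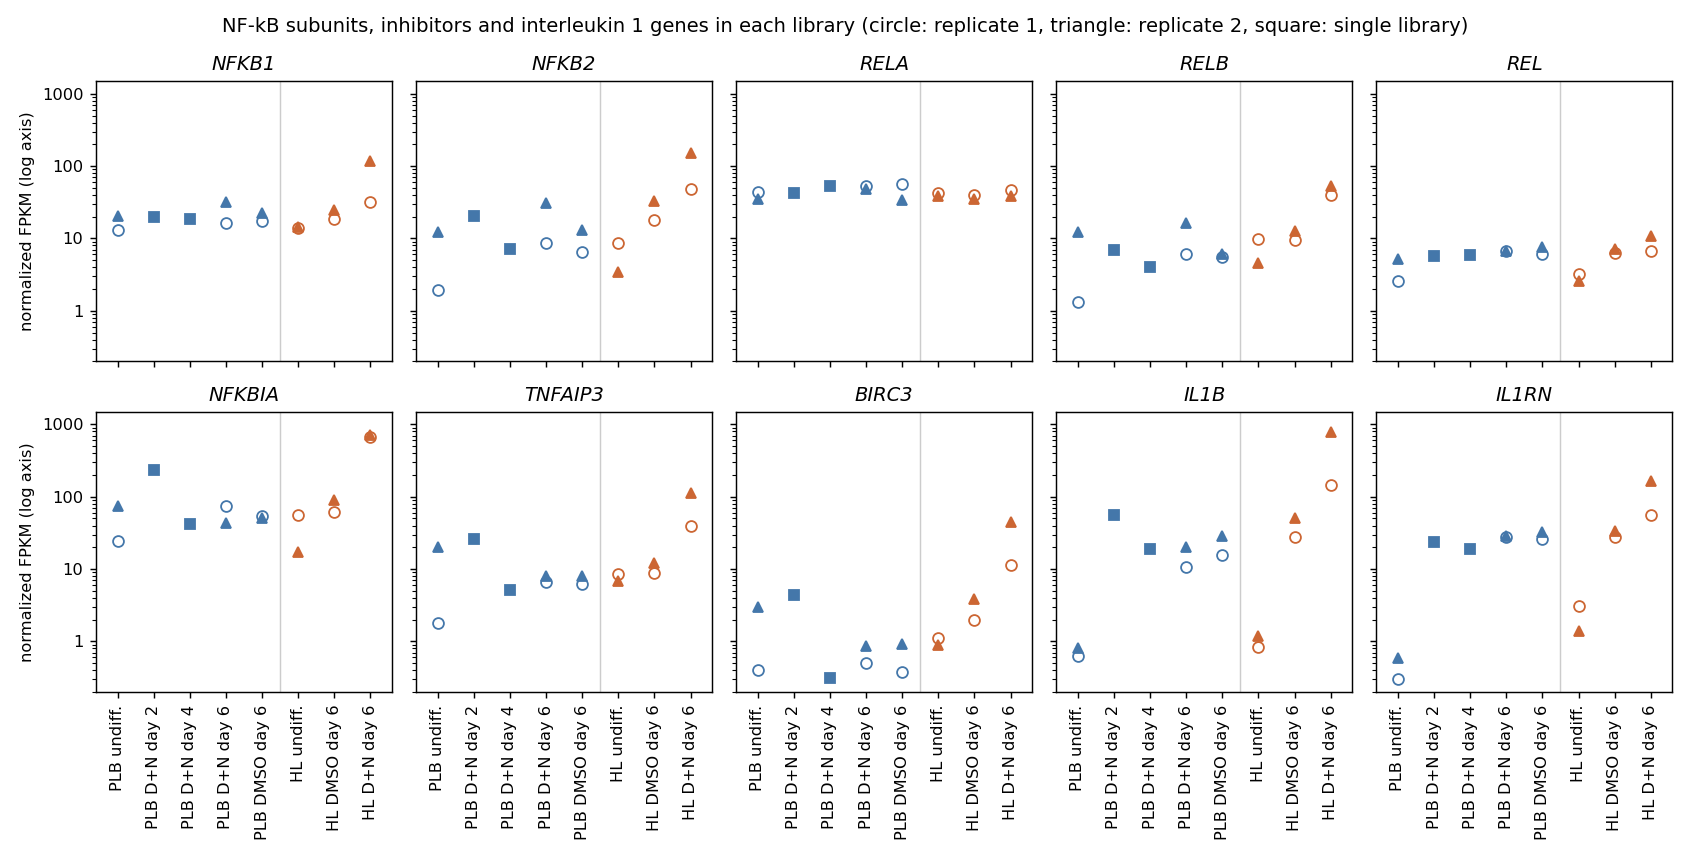
Normalized FPKM (log axis) of the 10 genes in each of the 14 libraries, PLB-985 in blue and HL-60 in orange, with D+N for DMSO and Nutridoma. In NFKB2, RELB, NFKBIA, TNFAIP3, BIRC3, IL1B and IL1RN, both HL-60 libraries with DMSO and Nutridoma lie above the other 10 replicated libraries. The share of all tested genes that do so was not computed. RELA stays between 33.7 and 55.7 throughout.

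TNFAIP3, a feedback inhibitor, was at 8.91 and 12.02 with DMSO and at 39.5 and 113 with DMSO and Nutridoma in HL-60 cells, a rise of 2.58 log2 (SE 0.67, adjusted p = 0.038). In PLB-985 cells it was at 6.15 and 7.90 and at 6.65 and 7.95. BIRC3 went from 1.96 and 3.86 to 11.5 and 45.1 in HL-60 cells, a rise of 2.66 log2 (SE 0.45, adjusted p = 0.0096), and was at 0.51 and 0.87 in PLB-985 cells with Nutridoma. For both genes the 2 HL-60 libraries with Nutridoma stood above all other libraries, and they were themselves 2.86-fold apart for TNFAIP3 and 3.93-fold apart for BIRC3.

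IL1B went from 27.6 and 51.0 to 144 and 775 in HL-60 cells, a rise of 3.12 log2 (SE 0.47, adjusted p = 0.0064). In PLB-985 cells it was at 15.9 and 28.8 with DMSO and at 10.6 and 20.3 with DMSO and Nutridoma, lower in both replicates by 0.54 and 0.48 log2 but not past the test (−0.51, SE 0.47, adjusted p = 0.72). IL1RN was at 56.0 and 166 in HL-60 cells with Nutridoma, a rise of 1.63 log2 (SE 0.43, adjusted p = 0.039), and at 27.5 and 28.4 in PLB-985 cells. The antagonist therefore stood at nearly the same level in the PLB-985 libraries with either protocol and in the HL-60 libraries with DMSO, from 26.4 to 33.5.

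Among the subunits, NFKB1 was at 18.7 and 24.5 with DMSO and at 31.4 and 118 with DMSO and Nutridoma in HL-60 cells, a rise of 1.47 log2 (SE 0.38, adjusted p = 0.037). NFKB2 went from 17.7 and 33.3 to 47.7 and 154, and RELB, the partner of p52, from 9.62 and 12.5 to 40.4 and 53.6. The groups did not overlap for NFKB2 and RELB, although neither passed the test. In PLB-985 cells NFKB2 was at 6.55 and 13.2 with DMSO and at 8.77 and 31.3 with DMSO and Nutridoma, and RELB at 5.55 and 6.15 and at 6.14 and 16.4. REL was at 6.66 and 10.8 in HL-60 and at 6.64 and 6.76 in PLB-985 cells with Nutridoma, close to its levels with DMSO.

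**Figure D3:**
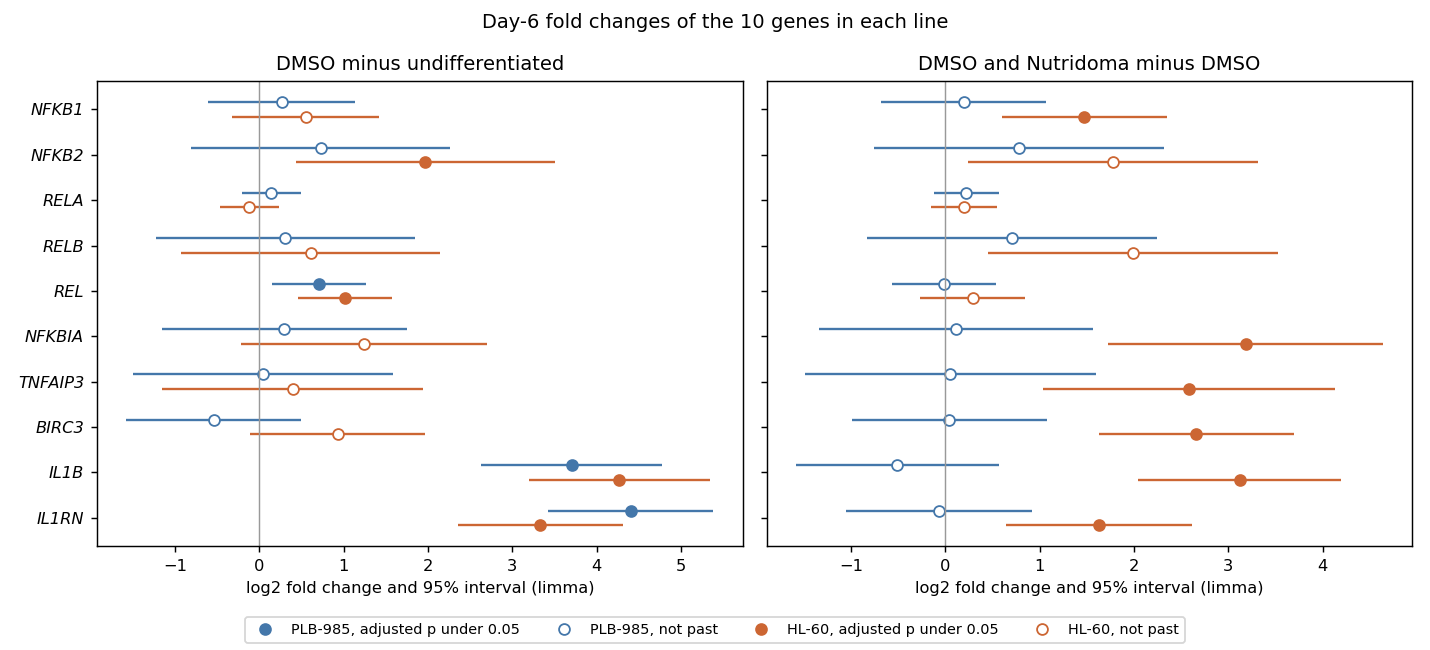
Log2 fold changes of the 10 genes with 95% intervals (limma, log2 of normalized FPKM plus 1, 2 libraries a group) for DMSO against undifferentiated cells (left) and for DMSO and Nutridoma against DMSO (right), with filled points past an adjusted p of 0.05. On the left IL1B and IL1RN lie between 3.33 and 4.401 in both lines, and on the right 6 HL-60 points and no PLB-985 point are filled.

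Against undifferentiated cells, 9 of the 10 genes rose in HL-60 cells with DMSO and Nutridoma and RELA did not (0.08, adjusted p = 0.68), where 59.1% of the tested genes passed, 25.5% as higher and 33.6% as lower. The changes of IL1B, IL1RN and NFKBIA were 7.39 (SE 0.47, adjusted p = 1.3e-05), 4.96 (SE 0.43, adjusted p = 4.4e-05) and 4.43 (SE 0.63, adjusted p = 0.00054). The others ran from 1.31 for REL to 3.74 for NFKB2, and RELB, at 2.60 (SE 0.66, adjusted p = 0.010), had an adjusted p of 0.083 without replicate 2 of the undifferentiated HL-60 cells and of 0.053 without replicate 1 of those with Nutridoma. In PLB-985 cells 3 of the 10 rose against undifferentiated cells, the same 3 genes as with DMSO alone (REL, IL1B and IL1RN), where 59.8% of the tested genes passed, 24% as higher and 35.8% as lower. IL1B rose by 3.19 log2 (SE 0.47, adjusted p = 0.00059), IL1RN by 4.33 (SE 0.43, adjusted p = 8.5e-05) and REL by 0.70 (SE 0.24, adjusted p = 0.036). REL was at 0.39 (adjusted p = 0.27) without replicate 1 of the undifferentiated PLB-985 cells, at 0.54 (adjusted p = 0.20) without replicate 1 and at 0.85 (adjusted p = 0.061) without replicate 2 of those with Nutridoma. Leaving out each of the 12 libraries in turn, it passed in 5, and without the replicate number or with no filter its adjusted p was 0.091 or 0.093. Without replicate 2 of the undifferentiated PLB-985 cells 5 genes passed, with TNFAIP3 at 1.35 (adjusted p = 0.047) and RELB at 2.14 (adjusted p = 0.018) added, and NFKB2 was at 2.18 (adjusted p = 0.056). With all libraries NFKB2 was at 1.504 (adjusted p = 0.083), and it passed without replicate 1 or without replicate 2 of the undifferentiated HL-60 cells (lowest adjusted p = 0.0051).

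Set directly against each other in the Nutridoma protocol, PLB-985 cells had lower levels than HL-60 cells of 7 of the 10 genes, where 23.9% of the tested genes passed, 11.2% as higher and 12.8% as lower in PLB-985. The differences were −4.41 for IL1B (SE 0.47, adjusted p = 0.00072), −3.83 for BIRC3 (SE 0.45, adjusted p = 0.0012), −3.59 for NFKBIA (SE 0.63, adjusted p = 0.0060) and −3.04 for TNFAIP3 (SE 0.67, adjusted p = 0.015). NFKB2, IL1RN and NFKB1 differed by −2.29, −1.75 and −1.38. Without replicate 2 of HL-60 cells with Nutridoma 3 genes passed, and without replicate 1 or 2 of the PLB-985 cells 3 or 2. RELB, at −2.09, had an adjusted p of 0.055, and REL and RELA were at −0.31 and 0.24. The difference between the lines in the Nutridoma effect itself, tested as an interaction, passed for none of the 10 genes (limma, 0 of 10, 6 at an unadjusted p under 0.05) and for 0.515% of the tested genes, 0.0363% as higher and 0.479% as lower in PLB-985. For IL1B this interaction was −3.63 (SE 0.66, adjusted p = 0.085), for NFKBIA −3.07 (SE 0.89, adjusted p = 0.25) and for BIRC3 −2.62 (SE 0.63, adjusted p = 0.18). A Nutridoma effect that differs between the lines is thus not shown for any of the 10 genes at this number of libraries. Without replicate 1 of HL-60 cells with Nutridoma, 4 genes (NFKB1, BIRC3, IL1B and IL1RN) passed it. In PLB-985 cells alone the Nutridoma effect against DMSO was 0.11 for NFKBIA, 0.04 for BIRC3 and −0.51 log2 for IL1B. In HL-60 cells it was 3.18, 2.66 and 3.12. Averaged over both lines, the Nutridoma effect passed for NFKBIA, BIRC3 and IL1B, 3 of the 10 genes, where 15.5% of the tested genes did, 9.49% as higher and 6.03% as lower. The changes were 1.65, 1.35 and 1.31 log2, and without either replicate of the PLB-985 cells with DMSO or with Nutridoma none of the 10 passed, where the adjusted p of BIRC3 ran from 0.060 to 0.11.

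These counts rested on few libraries. Of the 6 genes that rose in HL-60 cells against DMSO, IL1B alone passed without replicate 2 of HL-60 cells with Nutridoma, at 2.2 log2 (adjusted p = 0.0086). NFKBIA was then at 3.07 (adjusted p = 0.097), TNFAIP3 at 2.19 (adjusted p = 0.21), BIRC3 at 2.00 (adjusted p = 0.056), IL1RN at 0.87 (adjusted p = 0.19) and NFKB1 at 0.76 (adjusted p = 0.14). Without replicate 2 of HL-60 cells with DMSO the lowest adjusted p of the 6 was 0.068, for IL1B, and without replicate 1 IL1B alone passed. Without any 1 of the 4 PLB-985 libraries with DMSO or with Nutridoma 3 genes passed, since TNFAIP3, IL1RN and NFKB1 then had adjusted p from 0.055 to 0.064 at the same fold changes. With 1 library left in a group, that library is assumed to vary like the other groups. Without the replicate number in the model, NFKBIA (adjusted p = 0.029) and IL1B (adjusted p = 0.046) passed and BIRC3 had an adjusted p of 0.057.

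Several markers of monocytes and macrophages were higher with Nutridoma than with DMSO in both lines. Of 8 tested, 6 passed as higher in HL-60 and 3 (CD14, CD68 and CD163) in PLB-985 cells, and 0 as lower (limma). Of all tested genes 9.86% and 0.893% were called higher. Of 11 such genes, 8 were at 1 normalized FPKM or more in both HL-60 libraries with Nutridoma, against 5 with DMSO, 6 in PLB-985 cells with Nutridoma and 3 in PLB-985 cells with DMSO. Their sum was 641 to 777, 119 to 133, 131 to 142 and 45.5 to 48.0 in the same order. CD14, the co-receptor for lipopolysaccharide and the most abundant of them, was at 518 and 376 in HL-60 cells with Nutridoma, and MSR1, a macrophage scavenger receptor, was listed at 0 in all 12 replicated libraries. MRC1, another macrophage receptor, did not exceed 0.23 in any of them. CD14 also rose in PLB-985 cells, from 0.36 and 0.54 to 18.5 and 23.2 (3.91 log2, SE 0.28, adjusted p = 0.0011), where none of the 10 genes passed. CSF1R, the receptor of the macrophage growth factor, was at 7.78 and 8.73 with DMSO and at 53.4 and 89.7 with DMSO and Nutridoma in HL-60 cells, and at 1.57 and 1.08 in PLB-985 cells with Nutridoma. The neutrophil marker sum was 12287 to 14192 in HL-60 cells with Nutridoma and 14873 to 15816 with DMSO. The part of the monocyte markers in the HL-60 result for the 10 genes was not tested.

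Genes that NF-kB is known to activate were described beside these 10. The 17 tested targets of NF-kB were chosen as textbook targets with earlier results of these data known. Of these, 13 were higher in HL-60 cells with Nutridoma than with DMSO and none was lower. Of all tested genes 9.86% were called higher and 6.61% lower. The median log2 fold change of the targets was 3.72. CXCL2 and PTGS2, among the 13, reached 1 normalized FPKM in only 2 of the 12 replicated libraries. Replicate 2 of HL-60 cells with Nutridoma was 1 of these, so this group brought them past the filter and their calls are not independent of it. In PLB-985 cells 0 of the 17 passed (limma, 2 at an unadjusted p under 0.05), where 1.05% of the tested genes did, with a median of 0.00. Without replicate 2 of HL-60 cells with Nutridoma, a setting added for the pathway lists after the data were seen, CXCL2 and PTGS2 no longer reached the filter. Of the 15 targets then tested CCL3, TRAF1, SOD2, IER3 and CCL20 passed as higher and IRF1 as lower, where 3.25% of the tested genes were called higher and 1.43% lower, and the median of the targets was 2.37. CCL3 and CCL4, chemokines that attract monocytes and lymphocytes, rose by 7.05 (SE 0.59, adjusted p = 0.00064) and 7.09 log2 (SE 1.16, adjusted p = 0.0088) in HL-60 cells. CCL3 was at 1.14 and 6.90 with DMSO and at 319 and 920 with DMSO and Nutridoma, and the highest PLB-985 library, that of day 2, was at 8.30. IER3, a stress-induced survival gene, and TRAF1, an adaptor of TNF receptors, changed by 4.89 (adjusted p = 0.0016) and 4.31 (adjusted p = 0.015). TRAF1 was at 11.8 and 187 in the 2 replicates, and without replicate 2 it changed by 2.59 (adjusted p = 0.015). CCL3 was then at 6.51 (adjusted p = 0.0060), IER3 at 4.99 (adjusted p = 0.014), and CCL4 at 6.19 (adjusted p = 0.066). Of the targets, IL6 did not reach the filter, and IRF1, BCL2A1, TNFAIP2 and BCL2L1 did not pass. IRF1, a transcription factor also driven by interferon, was at 22.7 and 25.5 with DMSO and 10.7 and 26.5 with DMSO and Nutridoma, and fell by 1.20 without replicate 2 (adjusted p = 0.047). For CCL3, IER3, CXCL2 and PTGS2 the interaction with the line passed as well, at −7.08 (adjusted p = 0.016), −5.02 (adjusted p = 0.034), −3.94 (adjusted p = 0.048) and −3.17 (adjusted p = 0.012). Of all tested genes 0.515% passed this interaction. The calls of CXCL2 and PTGS2 carry the same limit of the filter. The interaction of these target genes was not examined under the other settings.

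Among 5 other genes of the IkB family, NFKBIB, NFKBIE and NFKBIZ rose in HL-60 cells with Nutridoma against DMSO and none passed in PLB-985 cells (limma, 0 of 5, 0 at an unadjusted p under 0.05), against 9.86% of all tested genes called higher in HL-60 and 0.893% in PLB-985. NFKBIZ, a nuclear IkB that co-activates part of the NF-kB targets, was at 0.66 and 1.55 with DMSO and at 10.6 and 8.95 with DMSO and Nutridoma in HL-60 cells, and the highest of the 8 PLB-985 libraries was at 0.13. It rose by 2.39 log2 (SE 0.21, adjusted p = 0.00075), and its interaction with the line passed at −2.41 (adjusted p = 0.019). Outside HL-60 cells with Nutridoma, only the HL-60 library with DMSO at 1.55 reached 1 normalized FPKM. The filter asks for 2 libraries, so HL-60 cells with Nutridoma brought NFKBIZ past it. The calls of NFKBIZ are therefore not independent of this group, and the PLB-985 values behind the interaction lay near the floor. NFKBIE, the inhibitor IkB-epsilon, changed by 1.60 (SE 0.38, adjusted p = 0.029) and NFKBIB, IkB-beta, by 0.60 (SE 0.17, adjusted p = 0.049). BCL3 and NFKBID, which bind p50 and p52 in the nucleus, were at 2.01 (adjusted p = 0.10) and 1.34 (adjusted p = 0.086). NFKBIZ alone of the 5 passed without replicate 2 of HL-60 cells with Nutridoma, at 2.54 (adjusted p = 0.0044), with NFKBIE at 1.23 (adjusted p = 0.19) and NFKBIB at 0.46 (adjusted p = 0.26).

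Of 5 kinases of the IKK family, which act above NF-kB, IKBKE and CHUK rose in HL-60 cells against DMSO and none passed in PLB-985 cells (limma, 0 of 5, 0 at an unadjusted p under 0.05). Of all tested genes 16.5% passed in HL-60 and 1.05% in PLB-985 cells, to be read beside each count here. IKBKE, an IKK-related kinase, changed by 1.79 (SE 0.29, adjusted p = 0.0088) and CHUK, IKK-alpha, by 0.49 (SE 0.13, adjusted p = 0.044), while IKBKB, IKK-beta, was at −0.28 (adjusted p = 0.36). Of 16 tested adaptors and upstream kinases 3 rose and 1 fell in HL-60 cells, with a median of 0.12, and TRAF5 did not reach the filter. IRAK2 changed by 3.26 (SE 0.76, adjusted p = 0.027), with 0.10 and 0.13 normalized FPKM under DMSO and 2.37 and 32.7 under DMSO and Nutridoma. It reached 1 normalized FPKM in no other replicated library, so this group alone brought it past the filter. TRAF3, which restrains the non-canonical pathway, changed by 1.00 (adjusted p = 0.031), and TAB1, a partner of the kinase TAK1, fell by 1.35 (adjusted p = 0.024). MYD88, the adaptor of the interleukin 1 and Toll-like receptors, rose in both lines, by 0.59 (adjusted p = 0.016) in HL-60 and by 0.83 (adjusted p = 0.018) in PLB-985 cells. Of 6 tested feedback genes TNIP2, a partner of A20, rose in HL-60 cells, by 0.84 (adjusted p = 0.020), and none passed in PLB-985 cells (limma, 0 of 6, 0 at an unadjusted p under 0.05). TNIP3 did not reach the filter. Without replicate 2 of HL-60 cells with Nutridoma IKBKE, at 1.23 (adjusted p = 0.015), and MYD88, at 0.71 (adjusted p = 0.029), passed, where 4.68% of the tested genes did. IRAK2 then fell short of the filter, and the adjusted p of CHUK, TRAF3, TAB1 and TNIP2 was 0.23, 0.19, 0.085 and 0.080.

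**Figure D4:**
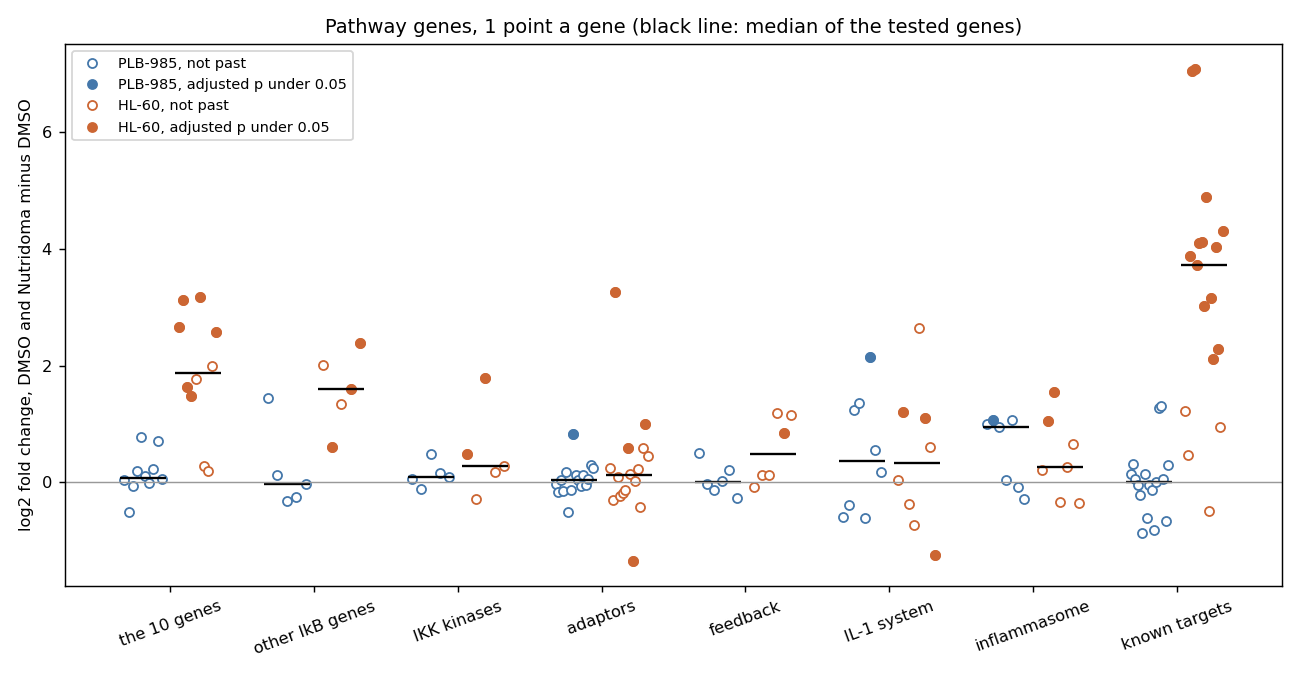
Log2 fold change (limma, log2 of normalized FPKM plus 1) of each tested pathway gene for DMSO and Nutridoma against DMSO, PLB-985 in blue and HL-60 in orange, filled where the adjusted p was under 0.05, with the list's median as a black line. The HL-60 medians are 1.88 for the 10 genes and 3.72 for the known targets, and the PLB-985 medians are 0.08 and 0.00.

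Among the receptors of the interleukin 1 family, IL1R2, the decoy receptor that binds interleukin 1 without signalling, rose in both lines, by 2.15 (SE 0.18, adjusted p = 0.0024) in PLB-985 and by 1.11 (SE 0.18, adjusted p = 0.0090) in HL-60 cells. Its level was 10.6 and 7.38 in PLB-985 cells with Nutridoma, against 3.86 and 3.16 in HL-60 cells, and the interaction with the line was 1.04 (adjusted p = 0.19). IL1R1, the signalling receptor, was at 0.23 in its highest library and did not reach the filter, nor did IL1RL1, IL33 and IL37. SIGIRR, a receptor that dampens interleukin 1 signalling, fell by 1.24 (adjusted p = 0.021) in HL-60 cells and was at 0.17 (adjusted p = 0.86) in PLB-985 cells. IL1A, the other agonist, was at 1.89 and 5.79 with DMSO and at 6.69 and 99.5 with DMSO and Nutridoma in HL-60 cells, a log2 difference of 2.65 (adjusted p = 0.052). IL18BP, which neutralizes interleukin 18, rose in HL-60 cells by 1.21 (adjusted p = 0.0031), was at −0.39 (adjusted p = 0.30) in PLB-985 cells, and passed the interaction with the line, at −1.61 (SE 0.21, adjusted p = 0.025). Of 8 tested genes of this family 3 passed in HL-60 cells, SIGIRR as the lower one, and 1 passed in PLB-985 cells, where 16.5% and 1.05% of all tested genes did. Inflammasome genes were also listed, some of whose products cleave the interleukin 1 beta precursor or sense the signal for it. Of 7 tested, CASP4 and CASP5 rose in HL-60 cells and CASP4 in PLB-985 cells. CASP4, an inflammatory caspase that senses lipopolysaccharide, changed by 1.08 (adjusted p = 0.0070) in PLB-985 and 1.06 (adjusted p = 0.0022) in HL-60 cells. AIM2 did not reach the filter. IL1R2, IL18BP, CASP4 and CASP5 passed without replicate 2 of HL-60 cells with Nutridoma as well, at 1.20, 1.32, 0.90 and 1.78, and SIGIRR was at −0.75 (adjusted p = 0.069).

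The ratio of IL1B to its antagonist IL1RN was 2.10 and 1.40 in undifferentiated PLB-985 and 0.27 and 0.84 in undifferentiated HL-60 cells. It was 2.57 and 4.67 in the 2 HL-60 libraries with Nutridoma and 0.99 and 1.52 with DMSO. In PLB-985 cells it was 0.60 and 0.88 with DMSO and 0.39 and 0.72 with DMSO and Nutridoma, and these overlapped. The highest ratio among the PLB-985 day-2, day-4 and day-6 libraries was 2.36, on day 2. These ratios are descriptions of single libraries and carry no test.

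**Figure D5:**
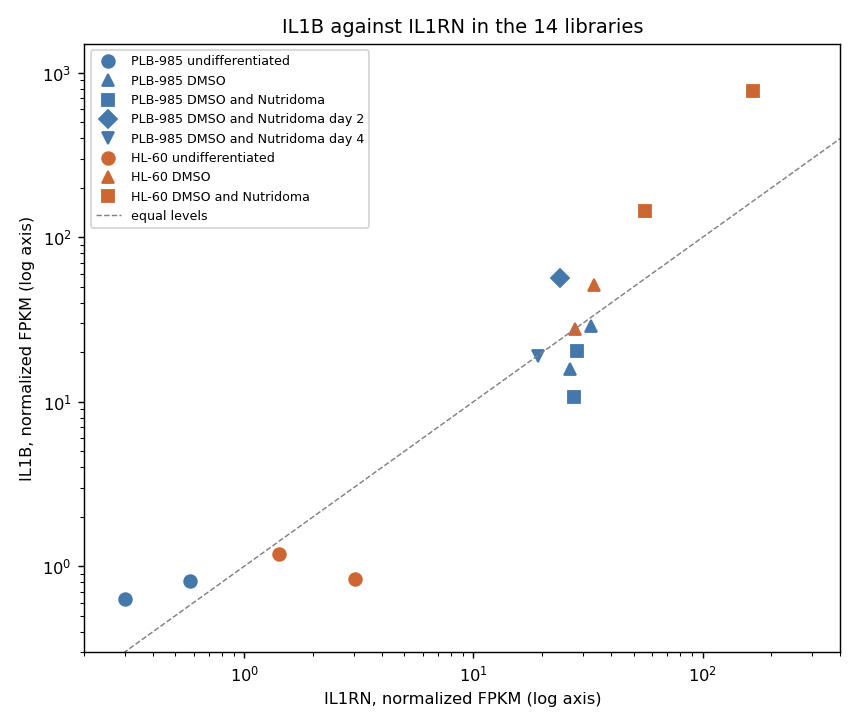
IL1B against IL1RN in normalized FPKM (log axes), 1 point a library, PLB-985 in blue and HL-60 in orange, with a dashed line where the 2 genes are level. The HL-60 libraries with DMSO and Nutridoma lie above the line at ratios of 2.57 and 4.67, and the PLB-985 day-6 libraries below it at 0.39 to 0.88.

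The fourth question was the course of these genes in PLB-985 cells with Nutridoma, with 1 library each on days 2 and 4 and hence no test. These 2 libraries have no replicate number. Total FPKM was 790253 on day 2 and 997226 on day 4, against 943987 to 1082040 in the replicate 1 and 739094 to 873607 in the replicate 2 libraries, and day and experimental run cannot be told apart here. On day 2 NFKBIA was at 238, above the other 7 PLB-985 libraries (24.05 to 73.8), and on day 4 it was at 42.4, inside their range. TNFAIP3 was at 26.0 on day 2 and 5.11 on day 4, BIRC3 at 4.403 and 0.31, and IL1B at 56.4 and 18.9. For these 4 genes the day-2 library was the highest of the 8 PLB-985 libraries, and it stayed below both HL-60 libraries with Nutridoma. For TNFAIP3 and BIRC3 the day-2 library was followed by replicate 2 of the undifferentiated cells, at 20.4 and 3.02. IL1RN was already at 23.9 on day 2, near its day-6 levels of 27.5 and 28.4, and at 19.2 on day 4. The subunits NFKB1, RELB, REL and RELA, at 20.03, 6.94, 5.74 and 43.1 on day 2, lay inside the range of the other PLB-985 libraries. NFKB2, at 20.3, lay inside it too. Of the targets, CXCL8 was at 168 on day 2 and 26.1 on day 4, and IER3 at 16.4 and 2.12. Monocyte markers summed to 47.5 on day 2, inside the range of the PLB-985 libraries with DMSO alone (45.5 to 48.0). Eosinophil, basophil and mast cell markers summed to 2157 on day 2, with PRG2 at 1476, against 170 to 245 on day 6. Their part in the day-2 values was not tested.

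For NFKBIA, IL1B and IL1RN, the genes with the most similar course over the 12 replicated libraries were looked up by the mean absolute difference of centred log2 values. NFKBIA was closest to EGR3, a growth-induced transcription factor, at a mean difference of 0.40, followed by PARM1 at 0.43 and VSIG4, a complement receptor of macrophages, at 0.47. IL1B was closest to ICAM1, an adhesion molecule and one of the targets above, at 0.56, then to IGSF6 at 0.61 and BTG2 at 0.63. IL1RN was closest to PILRA, an inhibitory receptor of myeloid cells, at 0.30, then to SH3BP5 and PLXNC1 at 0.33 and 0.34. These values describe likeness over 12 libraries that share lines and replicate numbers.

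By level, the order of the 10 genes changed with the condition. RELA was the second highest gene in undifferentiated PLB-985 cells and in both day-6 PLB-985 groups, behind NFKBIA, and the highest in undifferentiated HL-60 cells, with a mean of 40.4 against 36.8 for NFKBIA, where the replicates overlapped. In HL-60 cells with Nutridoma RELA was eighth of the 10, at a mean of 42.9, although its own level had not passed any test. NFKBIA led there with a mean of 691, followed by IL1B at 459, IL1RN at 111 and NFKB2 at 100.6. The 2 libraries of IL1B, IL1RN and NFKB2 overlapped with each other in this order, and those of NFKBIA and IL1B did too. BIRC3 was the lowest of the 10 in 4 of the 6 groups and at 28.3 above REL, at 8.75, in HL-60 cells with Nutridoma.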

How the data were processed

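The authors aligned single-end reads with STAR 2.4 to GRCh38.p5 with GENCODE annotation and made the deposited FPKM with Cufflinks 2.2.1. They then scaled the FPKM with a set of uniformly expressed genes and deposited log10 normalized values, in which an FPKM of 0 is −4. Each normalized value equals its FPKM times 1 factor per library, from 0.596 to 0.804, and no column of per-sample values was left unmapped. The authors' own steps were not checked on reads.

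Here log10 values were returned to the linear scale, and log2(normalized FPKM + 1) was fitted with limma 3.58.1 in R 4.3.3 (lmFit, eBayes with trend) over 13778 genes, with 6 groups and the replicate number as a block (5 residual degrees of freedom). All p-values are two-sided and Benjamini-Hochberg adjusted over all tested genes, separately for the 12 comparisons, and called under 0.05. The block was used because the study ran the experiment on 2 separate days, although no label ties the replicate number to a day. Over all tested genes, replicate deviations from the group means were alike in all 15 pairs of groups (Pearson's r 0.65 to 0.85). NFKBIA and NFKB2 departed from this in undifferentiated cells, with replicate differences of 1.58 and 2.16 log2 in PLB-985 against −1.68 and −1.13 in HL-60.

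The 10 members and all gene lists were chosen with earlier results of these data known. All members are named. From each list up to 4 genes per comparison were to be named, those past the threshold with the largest change in the same direction in both replicates, along with genes below the filter. Other list genes in the text (SOD2, CCL20, IRF1, BCL2A1, TNFAIP2, BCL2L1, IL1A, BCL3, NFKBID, IKBKB, TNF and CXCL8) and the markers given by name were named after their values were seen. Days 2 and 4 entered no test. Figures were drawn with matplotlib.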

Additional observations from a re-analysis of the deposited data

How the results depend on the processing

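The 10 genes were counted under 8 other settings and with each of the 12 replicated libraries left out, where a lone library is assumed to vary like the other groups. No called value changed sign. Without the replicate block, 2 of the 10 genes passed for HL-60 cells with Nutridoma against DMSO (6 with it), 0 for the average of both lines (3 with it) and 4 for PLB-985 against HL-60 cells with Nutridoma (7 with it). Over all genes the block moved these counts from 839 to 2269, from 958 to 2139 and from 1823 to 3298. The block also raised the counts over all genes from 70 to 145 for PLB-985 cells with Nutridoma against DMSO, from 1145 to 1947 and from 801 to 1428 between the lines when undifferentiated and with DMSO, and from 114 to 180 and 35 to 71 for the interactions of DMSO and of Nutridoma with the line. For DMSO against undifferentiated cells, 2 genes (3 with the block) passed in PLB-985 and 3 (4 with it) in HL-60 without the block, and as many with no filter. With no filter, the 3 counts of the 10 genes were 2, 0 and 3, as 30563 rows were then tested, and 1462 rows passed for HL-60 cells with Nutridoma against DMSO. The counts of the 2 interactions were 314 and 130 with no filter, 77 and 11 with a constant of 0.1 and 89 and 26 with a filter of 5. With an added constant of 0.1, 1 gene (IL1RN) passed between the undifferentiated lines. In the other 89 combinations of setting and comparison the count of the 10 genes stayed within 1.5 times. Leaving out 1 library gave 0 to 8 genes for HL-60 cells with Nutridoma against DMSO, 0 to 5 for the average of both lines and 2 to 8 for PLB-985 against HL-60 cells with Nutridoma. It gave 2 to 6 for HL-60 cells with DMSO against undifferentiated cells and 2 to 5 for PLB-985 cells with Nutridoma against undifferentiated cells. It gave 0 to 4 for the interaction of Nutridoma with the line, 0 to 1 between the lines with DMSO and 0 to 1 between the undifferentiated lines. The causes were not tested. On FPKM without the authors' scaling, 43.4% of the genes called for HL-60 cells with Nutridoma against DMSO were higher, against 59.9% with it, and for PLB-985 against HL-60 cells with Nutridoma 63.5% against 46.7%, where the median of all genes moved from −0.01 to 0.12. In PLB-985 cells with Nutridoma against undifferentiated cells that median moved from −0.16 to −0.01. The members called in these 2 comparisons were 6 and 7 on either scale. With no read counts, the error of low values such as BIRC3 in PLB-985 cells is not known.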
